A study of Mus musculus with 8 samples.

Results

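The collagen chain genes are the genes whose products assemble into collagens. They were taken as every symbol in the count tables made of Col, a type number, the letter a and a chain number. The rule found 43 of the 23284 genes listed, of which 11 encode chains of fibrillar collagens, 9 encode chains of basement membrane collagens and 23 encode other types. After a filter on low counts, 41 of the 43 were tested, among 15106 genes in all.

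The RNA came from peripheral retina cut out of mice at postnatal day 12, in 2 groups of 4 libraries. Both groups carry Cre recombinase under the Pax6 alpha enhancer, which is active in the peripheral retina, so cells of the dissected tissue outside that domain keep their alleles. The Rb-null group carries Rb lox/lox, a floxed allele of the retinoblastoma tumour suppressor. The other group, called TET-MYCN here, is labelled Rb null, TET-MYCN: it has in addition Rosa26-LSL-rtTA, a transactivator switched on by Cre, and TRE-MYCN, a MYCN transgene under a tetracycline response element. The floxed Rb allele is not repeated for this group in the series text, and the labels mention no doxycycline. Nothing in them ties a library to an animal of its own, so every p-value here reflects spread between libraries, and part of that spread may be technical. The design sets Rb-null retina labelled with the MYCN transgene against Rb-null retina without it.

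Gene counts ranged from 14872131 to 22873979 per library, and 3 counts corresponded to 0.13 to 0.202 CPM (counts per 1e+06 gene counts, with library sizes scaled by TMM). Photoreceptor markers, which define the labelled tissue, summed to 3614 to 15067 CPM in Rb-null and to 5495, 4477, 5403 and 2527 CPM in TET-MYCN libraries 1 to 4. All 8 of these markers had a negative log2 fold change of TET-MYCN over Rb-null (median -1.05), 6 of them at an unadjusted p under 0.05 in edgeR's test, and the lowest library was TET-MYCN 4. Mouse Mycn lay between 108 and 339 CPM across Rb-null and between 201 and 276 CPM across TET-MYCN. Rb1, the floxed gene, lay between 138 and 184 CPM and between 123 and 179 CPM. Whole-gene counts of these genes check neither the transgene nor the deletion of an exon. Lens markers stood apart in Rb-null libraries 2 and 3, at 276 and 520 summed CPM against 14.9 to 96.0 in the other 6 libraries.

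Collagens are extracellular proteins whose chains wind around each other in a helix, and each type is built from its own set of chains. In the eye, the vitreous body is a gel of thin fibrils made mainly of type II collagen with types V/XI and IX on them, and its collagen is made largely by the non-pigmented ciliary epithelium at the margin of the retina. Basement membranes contain a network of type IV collagen with types XV and XVIII, and they line the vitreal face of the retina (the inner limiting membrane), the ciliary epithelium and every blood vessel. Types I, III, V and VI are typical of the stroma of sclera, choroid and ciliary body.

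Levels were compared between genes per length, as CPM per kilobase of exon. The chains of types II and IX, which the vitreous fibril contains, were among the 6 most abundant, together with Col23a1, which encodes a transmembrane collagen, and Col6a1. In the Rb-null libraries Col9a1, a chain of type IX collagen, was first with 44.7 ± 7.13 CPM per kilobase (SD, n = 4). Col23a1 followed with 34.1 ± 3.15, Col2a1, the only chain of type II collagen, with 32.9 ± 4.52, and Col9a3 with 31.1 ± 3.98 CPM per kilobase. These 3 neighbours lay within each other's spread. Col6a1 with 25.8 ± 2.51 and Col9a2 with 19.8 ± 4.04 CPM per kilobase came next, then Col4a1 with 13.8 ± 0.99 and Col4a2 with 12.9 ± 0.706, which again lay within each other's spread, and Col18a1 with 10.1 ± 1.16.

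In the TET-MYCN libraries the same 9 genes held the first 9 places in another order. Col2a1 was first with 44.9 ± 13.4 CPM per kilobase, followed by Col9a3 with 42.9 ± 13.4, Col9a1 with 40.3 ± 6.71 and Col23a1 with 34.9 ± 8.05, all within each other's spread. Chains of types I and III were far lower. Col1a1 and Col1a2, the chains of type I collagen, had 1.76 ± 0.471 and 2.19 ± 0.622 CPM per kilobase in the Rb-null libraries. Col3a1, the chain of type III collagen, had 0.557 ± 0.167. At the bottom, Col10a1, the chain made by hypertrophic cartilage, had 2 to 13 counts per library and Col6a6 had 1 to 21, and both stayed under the filter on low counts.

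**Figure D1:**
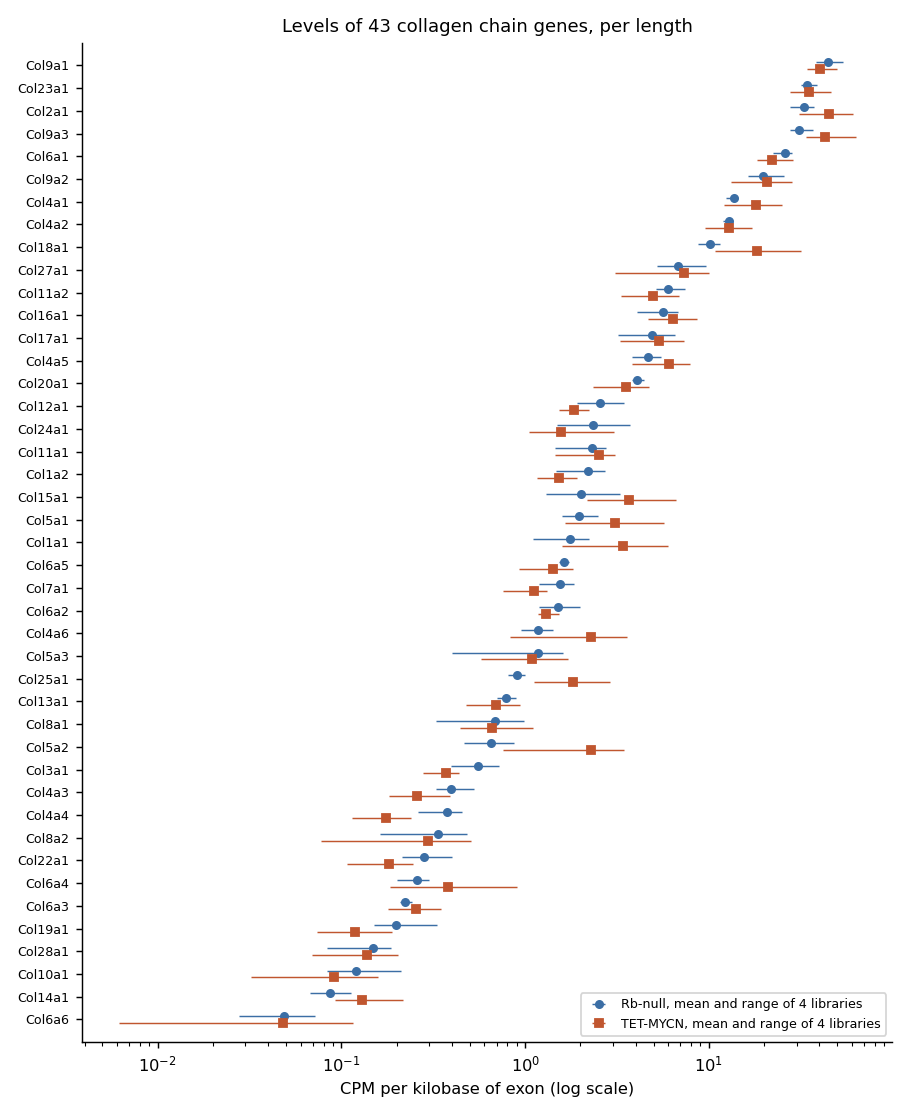
Level of each of the 43 collagen genes in CPM per kilobase of exon, on a log axis, with points for the mean of 4 libraries and lines from the lowest to the highest library, for Rb-null (circles) and TET-MYCN (squares). Genes are ordered by their Rb-null mean, from Col9a1 with 44.7 down to Col6a6 with 0.0489, and most TET-MYCN ranges are the wider ones.

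All collagens together took 0.175%, 0.206%, 0.166% and 0.169% of the gene counts in Rb-null libraries 1 to 4. In TET-MYCN libraries 1 to 4 they took 0.189%, 0.209%, 0.156% and 0.271%. The groups overlapped, with both the lowest and the highest share among the TET-MYCN libraries. Col2a1 and the 3 chains of type IX collagen alone made up 37.3% to 41.9% of all collagen counts in the Rb-null group and 37.4% to 43.1% in the TET-MYCN group. The 7 chains grouped as vitreous (Col2a1, Col5a2, Col9a1, Col9a2, Col9a3, Col11a1 and Col18a1) made up 43.6% to 46.9% and 47.1% to 53.5%. These ranges did not overlap but nearly met, and how often other gene sets would separate was not computed. Of the 7, Col5a2 is also grouped below with stroma and Col18a1 with vessel walls, so the separation is not particular to vitreous chains. The summed CPM of the 7 did overlap, at 738 to 933 CPM against 786 to 1444 CPM.

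No collagen gene passed an adjusted p of 0.05 in edgeR's quasi-likelihood test, which called 9 of the 15106 genes tested (0.0596%). DESeq2, run as an alternative, called 3 collagens, Col5a2, Col25a1 and Col4a4, where it called 530 of 15105 genes (3.51%). At an unadjusted p under 0.05, edgeR's test had 7 of the 41 collagens higher in TET-MYCN (17.1%, against 8.06% of all genes) and 4 lower (9.76%, against 7.72%). The 7 were Col5a2, Col25a1, Col18a1, Col4a6, Col1a1, Col9a3 and Col15a1. The 4 were Col4a4, Col7a1, Col3a1 and Col4a3. The groups of 4 libraries did not overlap for 1 collagen higher in TET-MYCN, Col25a1 (all genes: 4.36%), and for 1 lower, Col4a4 (all genes: 3.29%).

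Over the 41 genes, 20 log2 fold changes were positive and 21 negative, with a median of -0.01. Over all genes tested the median was 0.01 and 52.2% were positive. The median was 0.11 over the 11 fibrillar genes, 0.39 over the 9 basement membrane genes and -0.08 over the 21 other genes tested. Among the fibrillar genes 2 were higher and 1 lower at an unadjusted p under 0.05. The same counts were 3 and 3 among the basement membrane genes, and 2 and 0 among the rest. In these bulk libraries, fewer cells of a type and less RNA per cell cannot be told apart.

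**Figure D2:**
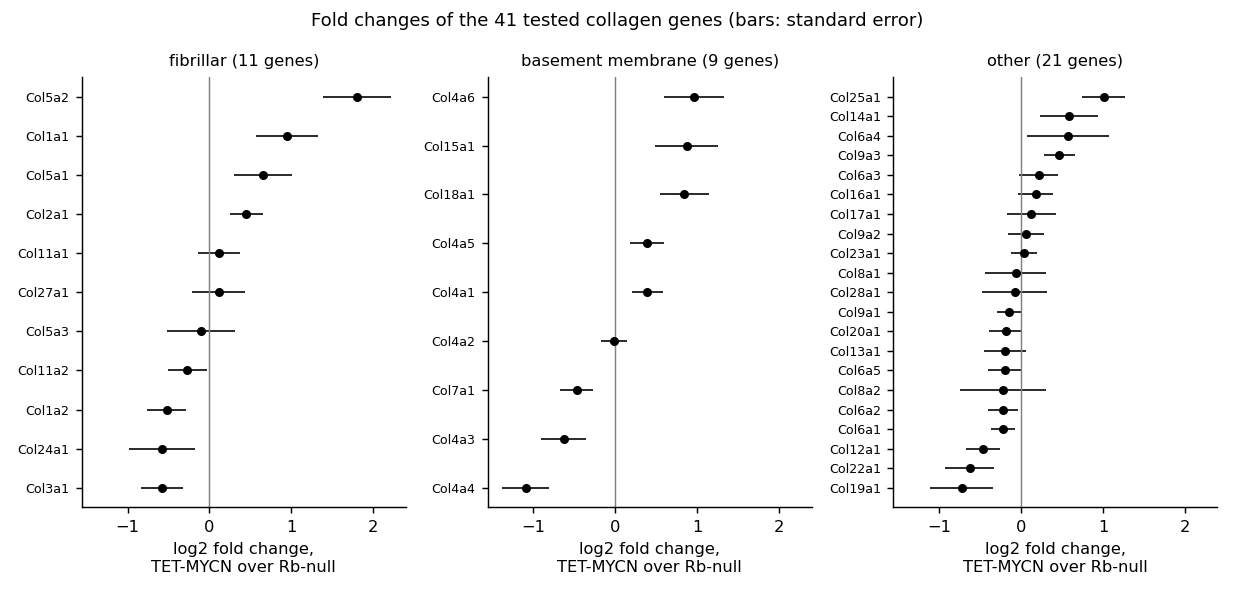
Log2 fold change of TET-MYCN over Rb-null for the 41 collagen genes tested by edgeR's quasi-likelihood test, in panels for the fibrillar, basement membrane and other classes, with points for the estimate and lines for 1 standard error. Values run from 1.8 for Col5a2 to -1.09 for Col4a4, and each class holds genes on both sides of 0.

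Upstream sequences are shown for 5 of the 11 collagens at an unadjusted p under 0.05, because MYC family proteins bind the letters CACGTG (the E-box) together with MAX. Each is the 250 bases before a RefSeq start (mouse build GRCm38.p6), 5′ to 3′ on the gene's strand. Col3a1 lies at chr1:45311288-45311537 on the plus strand, Col25a1 at chr3:130180595-130180844 on the plus strand and Col15a1 at chr4:47207762-47208011 on the plus strand. Col7a1 lies at chr9:108953336-108953585 on the plus strand and Col4a6 at chrX:141474077-141474326 on the minus strand. Capitals mark matches, on either strand, to the E-box CACGTG, the CCAAT box CCAAT, the GC box GGGCGG and the TATA box TATAAA, and each run in capitals is 1 match.
Col3a1: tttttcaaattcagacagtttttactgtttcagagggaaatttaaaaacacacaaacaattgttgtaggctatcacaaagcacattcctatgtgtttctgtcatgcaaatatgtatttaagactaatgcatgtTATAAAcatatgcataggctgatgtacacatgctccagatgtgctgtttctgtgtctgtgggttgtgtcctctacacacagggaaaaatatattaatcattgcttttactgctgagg
Col25a1: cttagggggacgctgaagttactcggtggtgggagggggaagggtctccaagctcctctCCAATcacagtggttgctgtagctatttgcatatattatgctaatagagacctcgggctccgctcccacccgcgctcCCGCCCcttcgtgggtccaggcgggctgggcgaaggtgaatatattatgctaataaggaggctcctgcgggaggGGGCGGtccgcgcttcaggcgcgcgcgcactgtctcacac
Col15a1: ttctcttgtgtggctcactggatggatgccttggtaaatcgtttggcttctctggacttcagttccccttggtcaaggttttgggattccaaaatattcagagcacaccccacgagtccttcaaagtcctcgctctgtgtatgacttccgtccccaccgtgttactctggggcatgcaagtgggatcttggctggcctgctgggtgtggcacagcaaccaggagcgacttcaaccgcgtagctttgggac
Col7a1: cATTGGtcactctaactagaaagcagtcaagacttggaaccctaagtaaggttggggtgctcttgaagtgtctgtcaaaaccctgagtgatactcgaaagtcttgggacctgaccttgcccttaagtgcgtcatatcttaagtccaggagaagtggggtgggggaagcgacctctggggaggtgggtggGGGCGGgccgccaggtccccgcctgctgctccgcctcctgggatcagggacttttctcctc
Col4a6: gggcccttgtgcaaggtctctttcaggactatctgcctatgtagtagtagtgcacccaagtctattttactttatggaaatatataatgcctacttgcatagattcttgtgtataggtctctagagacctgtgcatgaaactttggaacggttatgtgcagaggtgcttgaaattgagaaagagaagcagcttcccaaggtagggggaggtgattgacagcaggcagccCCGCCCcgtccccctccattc
None of the 5 holds an E-box. Col25a1 holds 1 CCAAT box and 2 GC boxes, Col7a1 holds 1 of each, Col4a6 holds 1 GC box, Col3a1 holds 1 TATA box and Col15a1 none of the motifs.

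RefSeq windows of this length were at hand for 35 of the 43 collagens, 38 windows in all, and for 32851 windows genome-wide. The E-box was in 0% of the collagen windows and in 6.02% of all windows. The CCAAT box was in 34.2% against 33.8%, and the TATA box in 13.2% against 12.4%. The GC box was in 57.9% of the collagen windows, 22 of 38, and in 32.7% of all windows. A match is a run of letters and not a measured site, and no match says only that the letters are not in this window.

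Among the fibrillar chains, the widest difference was that of Col5a2, a chain of type V collagen, which sits on type I and type II fibrils and sets their diameter. Col5a2 had 6.01, 8.32, 6.36 and 4.44 CPM across Rb-null and 17.2, 30.0, 7.25 and 33.2 CPM across TET-MYCN, each in the order of libraries 1 to 4, as in all lists of values that follow. Libraries 1, 2 and 4 of TET-MYCN were above every Rb-null library, whereas TET-MYCN library 3 lay inside the Rb-null range. The log2 fold change was 1.8 ± 0.42 (standard error), with an adjusted p of 0.157 in edgeR's quasi-likelihood test and of 0.0013 in DESeq2. Without TET-MYCN library 3, the lowest of its group, edgeR's adjusted p was 0.0153 with a log2 fold change of 2.09. That widening follows from which library was left out and adds no support. With each library left out in turn, edgeR called 0 to 230 of all genes, against 9 with every library kept. Col5a1, the partner chain in type V collagen, had 17.2, 21.3, 14.4 and 13.5 CPM against 25.5, 16.4, 13.9 and 48.5 CPM. Only TET-MYCN libraries 1 and 4 exceeded the Rb-null range, and the log2 fold change was 0.65 ± 0.36 (adjusted p = 0.4, edgeR), and 0.16 without library 4. The third chain of the type, Col5a3, had 2.73 to 10.9 CPM and 3.93 to 11.6 CPM.

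Type I collagen is a trimer of Col1a1 and Col1a2 chains, and here its chains had fold changes of opposite sign. Col1a1 had 12.0, 12.3, 7.27 and 14.7 CPM across Rb-null and 24.7, 10.5, 14.7 and 39.4 CPM across TET-MYCN. The groups overlapped, with TET-MYCN libraries 1 and 4 above the rest, and the log2 fold change was 0.95 ± 0.38 (adjusted p = 0.276, edgeR), and 0.52 without library 4. Col1a2 had 18.3, 23.1, 33.4 and 33.9 CPM against 14.4, 14.8, 22.6 and 23.9 CPM. Here TET-MYCN libraries 1 and 2 lay below every Rb-null library, and the log2 fold change was -0.52 ± 0.24 (adjusted p = 0.327, edgeR). Col3a1, which forms mixed fibrils with type I collagen, had 4.23, 3.89, 6.68 and 7.07 CPM against 3.40, 2.73, 4.27 and 4.18 CPM. Its log2 fold change was -0.58 ± 0.25 (adjusted p = 0.305, edgeR), with the ranges of both groups overlapping.

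Col2a1, the backbone of the vitreous fibril, was the collagen with the most counts per gene. It had 329, 347, 282 and 257 CPM across Rb-null and 348, 462, 286 and 564 CPM across TET-MYCN. TET-MYCN libraries 2 and 4 were well above the Rb-null range, library 1 was at its upper edge and library 3 was inside it. The log2 fold change was 0.45 ± 0.20 (adjusted p = 0.318, edgeR), and 0.27 without TET-MYCN library 4. Col11a1 and Col11a2, chains of type XI collagen that start the type II fibril, had 18.5 to 35.1 CPM against 18.5 to 39.3 CPM, and 35.3 to 51.2 CPM against 22.8 to 47.0 CPM. Their log2 fold changes were 0.11 ± 0.26 and -0.27 ± 0.24 and less than or near the standard error. Col27a1, a fibrillar collagen of cartilage, had 67.8 to 126 CPM and 40.0 to 131 CPM (log2 fold change 0.11 ± 0.33). Col24a1, the remaining fibrillar gene, had 11.4 to 28.3 CPM and 8.01 to 23.1 CPM.

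In the basement membrane class, the genes at an unadjusted p under 0.05 were split evenly by direction. Higher in TET-MYCN were the multiplexins, proteoglycan collagens at the edge of basement membranes, and Col4a6. Col18a1, whose cleaved end is endostatin and which is also a component of vitreous and ciliary basement membranes, had 71.3, 81.0, 61.1 and 71.1 CPM across Rb-null. In the TET-MYCN libraries it had 126, 75.4, 85.5 and 223 CPM, so that 3 of 4 lay above the Rb-null range and library 2 inside it. The log2 fold change was 0.84 ± 0.30 (adjusted p = 0.238, edgeR), and 0.43 without TET-MYCN library 4. Col15a1, the other multiplexin, had 12.2, 20.8, 8.26 and 9.76 CPM against 17.3, 19.9, 13.8 and 42.3 CPM. Only TET-MYCN library 4 exceeded the Rb-null range, and the log2 fold change was 0.87 ± 0.38 (adjusted p = 0.308, edgeR), and 0.42 without that library.

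The type IV genes lie head to head in pairs, and the members of each pair are transcribed away from a shared start region. By the RefSeq starts at hand, Col4a1 and Col4a2 begin 21 bases apart and Col4a5 and Col4a6 1343 bases apart. Col4a1 and Col4a2, which make the network found in nearly all basement membranes, were the most abundant. Col4a1 had 108, 107, 92.1 and 104 CPM against 142, 121, 90.4 and 186 CPM, with 3 of 4 TET-MYCN libraries above the Rb-null range and library 3 below it (log2 fold change 0.39 ± 0.19, adjusted p = 0.348, edgeR, and 0.19 without library 4). Col4a2 had 89.1, 87.2, 78.8 and 87.6 CPM against 83.2, 80.1, 63.1 and 114 CPM. Here the groups had nearly equal means, 85.7 ± 4.67 and 85.0 ± 20.96 CPM (SD, n = 4), and the log2 fold change was -0.01 ± 0.16 (adjusted p = 0.984, edgeR).

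Col4a3 and Col4a4, partners in the network that replaces Col4a1 and Col4a2 in mature glomerular and some ocular basement membranes, were the lowest of the type, with 24 to 103 counts per library. Col4a4 had 4.84, 4.80, 3.47 and 2.76 CPM across Rb-null and 2.10, 2.55, 1.57 and 1.21 CPM across TET-MYCN. Every TET-MYCN library lay below every Rb-null library. The log2 fold change was -1.09 ± 0.29, with an adjusted p of 0.164 in edgeR's test and of 0.0277 in DESeq2. Col4a3 had 5.24, 3.28, 3.67 and 3.57 CPM against 3.89, 2.47, 2.08 and 1.81 CPM, which overlapped through TET-MYCN library 1 (log2 fold change -0.63 ± 0.28, adjusted p = 0.307, edgeR).

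On the X chromosome, Col4a6 had 7.54, 11.4, 10.2 and 8.21 CPM against 22.7, 14.8, 6.63 and 28.5 CPM. TET-MYCN libraries 1, 2 and 4 were above the Rb-null range and library 3 was below it. The log2 fold change was 0.96 ± 0.37 (adjusted p = 0.261, edgeR), or 1.24 (adjusted p = 0.0439, edgeR) without library 3. As library 3 was the lowest, the larger value follows from leaving it out. Its neighbour Col4a5 had 31.9, 36.8, 30.5 and 25.5 CPM against 44.7, 40.1, 25.5 and 53.3 CPM, ordered the same way over the TET-MYCN libraries (log2 fold change 0.39 ± 0.21, adjusted p = 0.385, edgeR, and 0.24 without library 4). Col7a1, which forms the anchoring fibrils under surface epithelia, had 14.6, 12.3, 17.5 and 19.0 CPM against 13.5, 11.4, 7.76 and 13.0 CPM. Only Rb-null library 2 lay within the TET-MYCN range, and the log2 fold change was -0.47 ± 0.20 (adjusted p = 0.303, edgeR).

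Among the other types, Col25a1, a transmembrane collagen of neurons that muscle innervation requires, had the largest difference. Col25a1 had 11.7, 10.4, 11.9 and 12.9 CPM across Rb-null and 24.7, 37.4, 14.4 and 17.7 CPM across TET-MYCN. All 4 TET-MYCN libraries were above all Rb-null libraries, library 3 by the smallest margin. The log2 fold change was 1.01 ± 0.27, with an adjusted p of 0.164 in edgeR's test and of 0.0175 in DESeq2. Without TET-MYCN library 3 edgeR's was 0.0453, which follows from leaving out the lowest library of the group. The other transmembrane collagens overlapped between the groups. Col23a1, first among them by level, had 181 to 222 CPM and 158 to 265 CPM (log2 fold change 0.04 ± 0.16). Col17a1, of hemidesmosomes, had 19.2 to 39.4 CPM and 19.8 to 44.2 CPM, and Col13a1 had 3.23 to 4.12 CPM and 2.21 to 4.33 CPM.

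The FACIT collagens decorate fibrils without forming their own. Of the type IX chains that coat the vitreous fibril, Col9a3 had 116, 142, 106 and 115 CPM against 144, 145, 131 and 242 CPM. Its partner Col9a1 had 193, 241, 271 and 202 CPM against 174, 196, 194 and 253 CPM. Col9a2 had 56.6, 79.2, 50.4 and 58.4 CPM against 40.9, 61.5, 64.8 and 88.1 CPM. The log2 fold changes of these partners differed in sign or size: 0.47 ± 0.19 for Col9a3, -0.15 ± 0.15 for Col9a1 and 0.06 ± 0.22 for Col9a2 (adjusted p = 0.287, 0.674 and 0.925, edgeR). Col9a3 and Col9a2 were highest in TET-MYCN library 4, and Col9a1 was highest in Rb-null library 3. Without those libraries the log2 fold change was 0.23 for Col9a3 and -0.13 for Col9a2 (without TET-MYCN library 4), and -0.05 for Col9a1 (without Rb-null library 3).

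The remaining FACIT genes with named values were lower or near equal. Col12a1, which sits on type I fibrils, had 29.3 to 52.2 CPM and 23.3 to 33.8 CPM (log2 fold change -0.46 ± 0.21, adjusted p = 0.32, edgeR). Col22a1, of tissue junctions such as that of muscle and tendon, had 1.97 to 3.67 CPM and 0.988 to 2.25 CPM (-0.63 ± 0.30, adjusted p = 0.336, edgeR). Col16a1 had 27.6 to 45.7 CPM and 31.4 to 57.8 CPM (0.18 ± 0.21). Col14a1, Col19a1 and Col20a1 also overlapped between groups, the first 2 with at most 2.29 CPM and Col20a1 with 12.0 to 24.3 CPM.

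Of the type VI genes, which form beaded microfibrils, Col6a1 was by far the most abundant. It had 118, 124, 98.0 and 113 CPM against 80.5, 126, 87.7 and 92.8 CPM, and the groups overlapped through TET-MYCN library 2 (log2 fold change -0.22 ± 0.15, adjusted p = 0.487, edgeR). Its partner Col6a2 had only 9.96 to 16.6 CPM and 9.77 to 12.8 CPM, and Col6a3 2.49 to 2.88 CPM and 2.14 to 4.18 CPM. Col6a5 had 8.71 to 17.2 CPM over all 8 libraries. Named after its values were seen, Col6a4 had 1.70 to 2.56 CPM across Rb-null and 1.79, 1.56, 1.97 and 7.71 CPM across TET-MYCN. Col28a1 stayed under 1 CPM, and the chains of the hexagonal network of Descemet's membrane, Col8a1 and Col8a2, had 2.55 to 8.65 CPM and 0.346 to 2.29 CPM over all libraries.

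**Figure D3:**
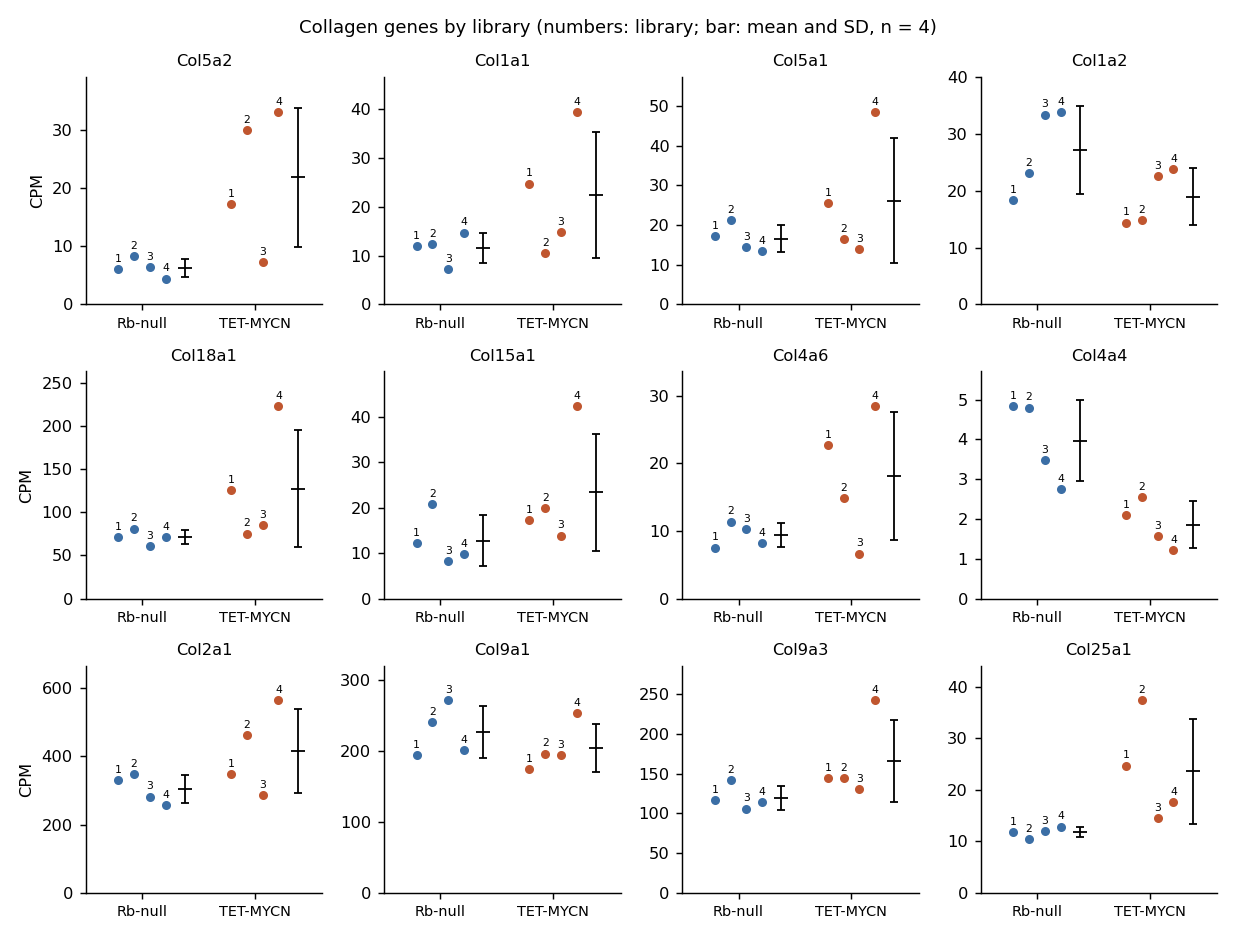
CPM of 12 collagen genes in each of the 4 Rb-null and 4 TET-MYCN libraries (points, numbered by library), with the mean and SD of each group as a bar, on axes that start at 0. TET-MYCN library 4 is at the top of most panels, at 564 CPM for Col2a1 and 223 CPM for Col18a1, whereas Col4a4 is lower in all 4 TET-MYCN libraries and Col25a1 higher in all 4.

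Chains of the same trimer, or transcribed from the same start region, were then compared within each library as a ratio of counts, which does not depend on library size. The ratios were compared by a two-sided exact permutation test over the 70 arrangements of the libraries, whose smallest possible p is 0.0286, with Benjamini-Hochberg adjustment over the 8 ratios computed. None passed an adjusted p of 0.05. With so few libraries a ratio could pass only if most of the 8 ratios had the smallest possible p. The adjusted threshold therefore decides little here. Col4a1 to Col4a2 was 1.21, 1.23, 1.17 and 1.19 in the Rb-null libraries and 1.70, 1.51, 1.43 and 1.64 in the TET-MYCN libraries. All 4 TET-MYCN ratios were above all Rb-null ratios, with a mean of 1.57 ± 0.124 against 1.20 ± 0.0273 (SD, n = 4) and a log2 difference of 0.39 (exact permutation p = 0.0286, the smallest possible, adjusted p = 0.114). Leaving out any 1 library gave log2 differences of 0.35 to 0.43.

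The ratio of Col9a3 to Col9a1 also separated the groups. It was 0.601, 0.588, 0.391 and 0.569 against 0.8294, 0.738, 0.673 and 0.958, a log2 difference of 0.58 (exact permutation p = 0.0286, adjusted p = 0.114). For type I collagen, Col1a1 to Col1a2 was 0.653, 0.530, 0.218 and 0.433 against 1.72, 0.708, 0.652 and 1.65. Here TET-MYCN library 3 fell just below Rb-null library 1, and the log2 difference was 1.33 (exact permutation p = 0.0571, adjusted p = 0.152). The ratio was above 1 in TET-MYCN libraries 1 and 4 and below 1 in the other 6.

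The other 5 ratios overlapped between the groups. Col4a3 to Col4a4 was 0.684 to 1.29 against 0.966 to 1.85 (exact permutation p = 0.171), and Col4a5 to Col4a6 was 2.99 to 4.23 against 1.87 to 3.85 (exact permutation p = 0.2). Col9a2 to Col9a1 was 0.186 to 0.329 against 0.235 to 0.348 (exact permutation p = 0.486). Col6a1 to Col6a2 was 6.83 to 12.4 against 7.85 to 9.90 and Col8a1 to Col8a2 was 2.67 to 4.56 against 2.83 to 10 (exact permutation p = 0.886 and 0.543). A p above the threshold does not show that these ratios are alike.

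**Figure D4:**
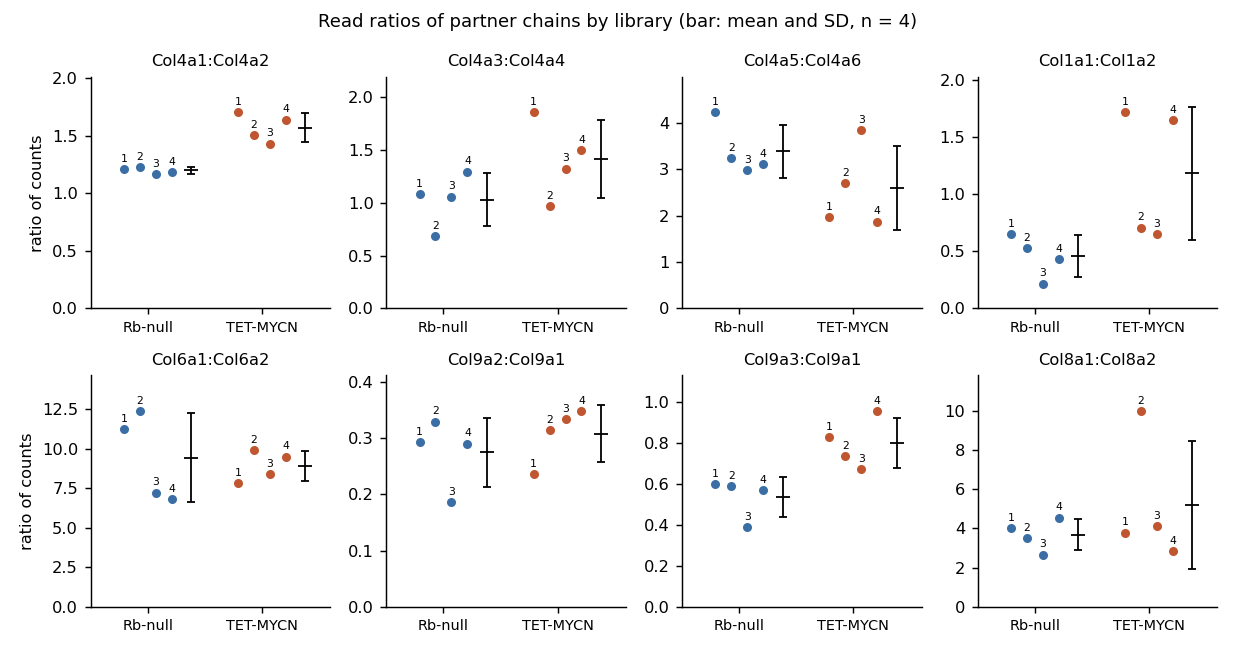
Ratio of counts of partner collagen chains in each library (points, numbered by library), with the mean and SD of 4 libraries as a bar, for Rb-null and TET-MYCN. The groups are apart for Col4a1 to Col4a2 (1.17 to 1.23 against 1.43 to 1.70) and Col9a3 to Col9a1 (0.391 to 0.601 against 0.673 to 0.958) and overlap in the other 6 panels.

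The TET-MYCN libraries spread more widely than the Rb-null libraries for most collagens. The ratio of the highest to the lowest library had a median of 1.6 over the 41 genes in the Rb-null group and of 2.12 in the TET-MYCN group. It was wider in TET-MYCN for 35 of the 41 (85.4%), against 70.1% of all genes tested. Col18a1 went from a ratio of 1.33 to one of 2.96. TET-MYCN library 4 was the highest of the 8 libraries for 18 of the 41 collagens (43.9%, against 21.4% of all genes), and TET-MYCN library 3 was the lowest for 12 (29.3%, against 21.5%).

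The spread was read beside marker genes of the tissues that make collagen. Summed over 9 markers of ciliary epithelium and retinal margin, CPM was 113, 155, 103 and 109 in the Rb-null libraries and 357, 173, 182 and 482 in the TET-MYCN libraries. Every TET-MYCN library was above every Rb-null library, with libraries 4 and 1 the highest. Most of the sum came from Zic1 (93.5, 41.8, 30.2 and 150 CPM in TET-MYCN), Zic2 (120, 81.5, 66.9 and 156 CPM) and Gja1 (79.1, 14.4, 28.3 and 90.6 CPM). In all, 7 of the 8 markers tested had a positive log2 fold change (median 1.59). Optc, which encodes opticin, a vitreous proteoglycan of the ciliary epithelium, had 7.94, 12.2, 7.60 and 9.96 CPM against 24.0, 15.0, 26.3 and 36.3 CPM (log2 fold change 1.43 ± 0.26, adjusted p = 0.107, edgeR). None of the 9 markers was at 0 in any library. Zic1, Zic2, Gja1, Otx1, Bmp4 and Wfdc1 were highest in TET-MYCN libraries 4 and 1, Optc in libraries 4 and 3, Aqp1 in Rb-null library 3 and Msx1 in Rb-null library 2. Col18a1, Col1a1, Col5a1, Col4a1, Col4a5, Col4a6, Col11a1 and Col6a3 were also highest in TET-MYCN libraries 4 and 1. Most vitreous chains were not: Col2a1, Col9a3 and Col5a2 were highest in TET-MYCN libraries 4 and 2. Col9a2 was highest in TET-MYCN library 4 and Rb-null library 2, and Col9a1 in Rb-null library 3. TET-MYCN library 4 was the highest library for 21.4% of all genes. The part of ciliary tissue in the collagen values was not tested.

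TET-MYCN libraries 1 and 4 were left out in an alternative chosen after the data were seen. They are the libraries in which Col18a1 and the collagens listed with it were highest. Smaller fold changes therefore follow from the choice and bear on no link with the markers. The median of the basement membrane class went from 0.39 to 0.04. For Col5a2, Col25a1 and Col4a4 the log2 fold changes were 1.57, 1.15 and -0.93 with the remaining 6 libraries.

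Markers of fibroblasts and stroma summed to 19.7 to 28.2 CPM in the Rb-null group and 34.7 to 122 CPM in the TET-MYCN group, again highest in libraries 1 and 4. The sum rested mainly on Fbln1, with 7.54 to 14.8 CPM against 24.3 to 108 CPM. Of the other members, Dcn, Lum and Dpt had at most 0.247 CPM in any library, whereas Mgp and Foxc1 were present in all, at 1.56 to 4.33 CPM and 2.32 to 3.77 CPM. Ogn had 0.356, 0.972, 0.459 and 1.14 CPM against 3.77, 0.736, 1.8 and 2.62 CPM (log2 fold change 1.6 ± 0.53, adjusted p = 0.216, edgeR). Scara5 went the other way, with 1.43, 1.28, 1.31 and 0.740 CPM against 0.680, 0.389, 0.675 and 0.302 CPM (-1.24 ± 0.34, adjusted p = 0.17, edgeR). It was lower without overlap, as were 3.29% of all genes tested. In all, 3 of the 7 stroma markers tested had a positive fold change (median -0.21). The 8 stroma collagens (Col1a1, Col1a2, Col3a1, Col5a1, Col5a2, Col6a1, Col6a2 and Col6a3) had 4 positive and 4 negative fold changes, with a median of -0.0049.

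The 12 endothelial markers summed to 486 to 555 CPM in the Rb-null group and to 397, 540, 401 and 399 CPM across TET-MYCN, with 2 of 12 fold changes positive and a median of -0.32. Kdr made up most of that sum. The 11 pericyte and smooth muscle markers summed to 86.9 to 90.6 CPM in Rb-null and to 82.6, 84.7, 78.0 and 104 CPM in TET-MYCN, highest in library 4, with 4 of 10 fold changes positive and a median of -0.27. Among them the contractile genes Acta2 (1.15 to 2.83 CPM against 5.81, 1.47, 1.85 and 8.26 CPM) and Tagln (3.58 to 5.31 CPM against 7.78, 5.24, 5.45 and 9.42 CPM) were highest in TET-MYCN libraries 4 and 1. Others went the other way. Pdgfrb had 21.4 to 27.8 CPM against 14.7 to 20.9 CPM, lower without overlap (all genes: 3.29%), with a log2 fold change of -0.34 ± 0.14. Abcc9 had 10.6 to 13.9 CPM against 6.24 to 10.7 CPM (-0.47 ± 0.18). Fold changes of Rgs5, Kcnj8, Myh11 and Des were also negative. The 4 chains grouped as vessel wall basement membrane (Col4a1, Col4a2, Col15a1 and Col18a1) summed to 240 to 296 CPM against 368, 296, 253 and 565 CPM, with 3 of 4 fold changes positive. Their highest library, TET-MYCN 4, had the highest pericyte and smooth muscle sum and an endothelial sum below that of every Rb-null library, and the part of vessels in these values was not tested.

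Markers of the lens, whose capsule is rich in type IV collagen, were highest in Rb-null libraries 2 and 3 and lowest in TET-MYCN library 2. Col4a1 in Rb-null libraries 2 and 3 had 107 and 92.1 CPM, beside 108 and 104 CPM in Rb-null libraries 1 and 4. Pigment cell markers summed to 59.8, 19.3, 44.2 and 33.8 CPM in Rb-null and to 60.7, 18.6, 36.3 and 91.9 CPM in TET-MYCN, so that libraries 4 and 1 were again the highest, with 4 of 5 fold changes positive (median 0.63). Tyrp1, a melanosome enzyme, had 2.29 to 5.60 CPM against 10.8, 2.99, 6.30 and 20.5 CPM (log2 fold change 1.51 ± 0.54, adjusted p = 0.237, edgeR). Ttr, of the same list, was lower, with 14.7, 1.34, 14.8 and 8.08 CPM against 6.73, 1.25, 3.26 and 2.87 CPM (-1.48 ± 0.66, adjusted p = 0.313, edgeR). Rpe65, under the filter and not tested, had 0.0608 to 2.10 CPM against 0.0433 to 0.309 CPM. Of the 3 astrocyte markers, Gfap had 64.7, 90.0, 45.4 and 75.2 CPM against 144, 38.7, 117 and 161 CPM, likewise highest in TET-MYCN libraries 4 and 1 (0.75 ± 0.38, adjusted p = 0.364, edgeR). Pax2 was lower, with 2.16 to 5.30 CPM against 1.73 to 3.26 CPM (-0.73 ± 0.31, adjusted p = 0.299, edgeR). Pdgfra was near equal, with 47.7 to 61.0 CPM against 48.1 to 59.3 CPM (-0.03 ± 0.11). Müller glia markers summed to 2896 to 4211 CPM in the Rb-null group and 1696 to 2587 CPM in the TET-MYCN group, without overlap. The part of pigment cells, astrocytes, Müller glia and photoreceptors in the collagen values was not tested. Markers of cornea and surface epithelium summed to at most 4.80 CPM, with Krt5 and Krt14 at or near 0, beside the 7.76 to 19.0 CPM of Col7a1.

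**Figure D5:**
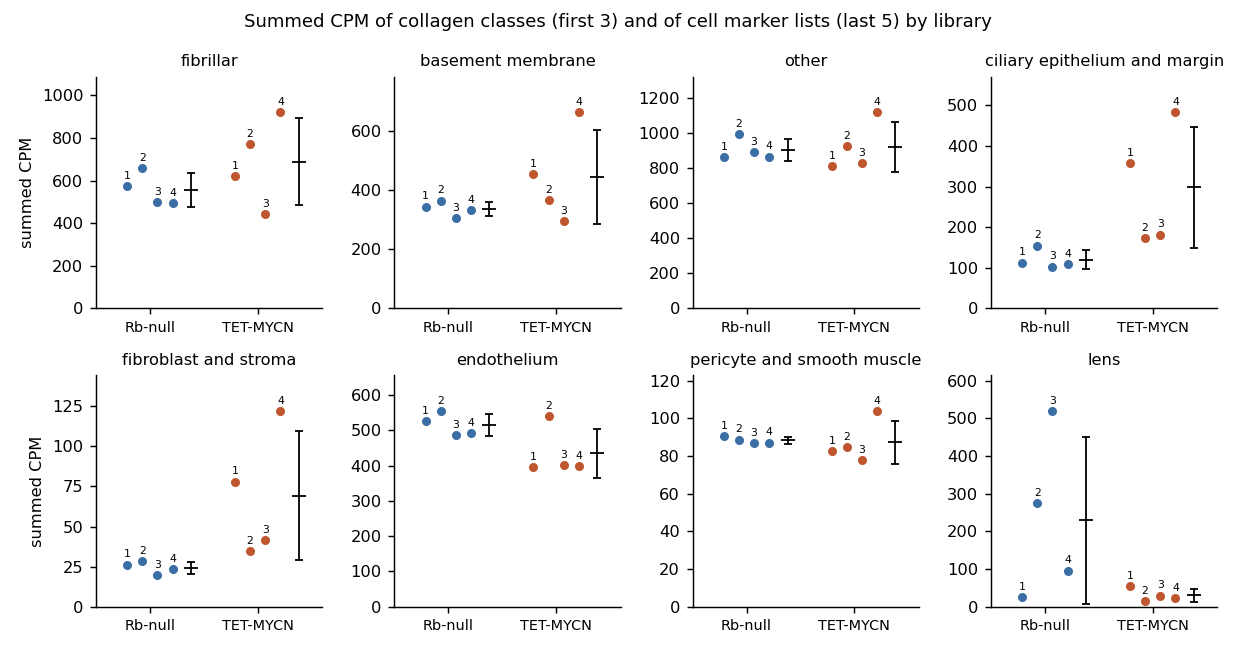
Summed CPM in each library of the fibrillar, basement membrane and other collagen classes, and of markers of ciliary epithelium and margin, fibroblast and stroma, endothelium, pericyte and smooth muscle, and lens, with the mean and SD of 4 libraries as a bar. The basement membrane sum is highest in TET-MYCN libraries 4 (663 CPM) and 1 (455 CPM), as are the ciliary markers (482 and 357 CPM). Endothelial markers, a sum made up mostly of Kdr, are at 399 and 397 CPM there.

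Genes that modify, assemble, bind and cut collagen were examined as 4 lists, and edgeR's test called none of their genes at an adjusted p of 0.05. Over all genes tested, 52.2% had a positive log2 fold change, 8.06% were higher and 7.72% lower at an unadjusted p under 0.05, and 4.36% were higher without overlap. Of 26 assembly genes tested, 19 (73.1%) had a positive log2 fold change (median 0.13), with 2 higher (7.69%) and 1 lower (3.85%) at an unadjusted p under 0.05, shares at or below those of all genes. Crtap, part of a proline hydroxylase complex, had 11.9 to 14.2 CPM against 14.4 to 25.8 CPM (log2 fold change 0.61 ± 0.20). Loxl1, a crosslinking oxidase, had 10.3 to 17.7 CPM against 12.2 to 54.3 CPM (0.99 ± 0.41), highest in TET-MYCN libraries 4 and 1. Adamts3, which trims the amino end of procollagen, had 27.2 to 66.3 CPM against 18.9 to 40.5 CPM (-0.64 ± 0.28).

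Of 8 collagen receptor genes tested, 5 (62.5%, all genes 52.2%) had a positive fold change (median 0.08) and 3 (37.5%, all genes 8.06%) were higher at an unadjusted p under 0.05. The same 3 did not overlap between the groups (all genes 4.36%). Mrc2, an endocytic receptor for collagen, had 4.94, 6.26, 5.37 and 3.97 CPM against 18.9, 9.91, 6.58 and 23.0 CPM, without overlap (1.5 ± 0.36, adjusted p = 0.158, edgeR). Ddr2, a receptor kinase for fibrillar collagen, had 11.1 to 12.3 CPM against 13.3 to 44.8 CPM, also without overlap (1.22 ± 0.31, adjusted p = 0.164, edgeR). Itgb1, the beta chain shared by the collagen-binding integrins, had 93.7 to 121 CPM against 127 to 153 CPM (0.32 ± 0.11).

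Of 11 collagen-cleaving protease and inhibitor genes tested, 8 (72.7%, all genes 52.2%) had a positive fold change (median 0.27) and 3 (27.3%, all genes 8.06%) were higher at an unadjusted p under 0.05. These were Timp1, a metalloproteinase inhibitor, Ctsk, a lysosomal protease, and Mmp13, a collagenase, all with at most 4.13 CPM and with log2 fold changes of 0.87 ± 0.27, 0.82 ± 0.29 and 0.85 ± 0.31. Of 15 other basement membrane genes tested, 9 (60%, all genes 52.2%) had a positive fold change (median 0.22). At an unadjusted p under 0.05, 4 were higher (26.7%, all genes 8.06%) and 1 was lower (6.67%, all genes 7.72%). Nid2, which encodes a nidogen that links laminin to type IV collagen, had 6.52, 5.35, 6.55 and 7.07 CPM against 22.9, 8.27, 6.97 and 29.2 CPM, again highest in TET-MYCN libraries 4 and 1 (1.40 ± 0.43, adjusted p = 0.197, edgeR). Its relative Nid1 had 39.9 to 46.8 CPM against 42.6 to 61.0 CPM (0.35 ± 0.13). Lamc3, a laminin chain, had 6.19 to 7.47 CPM against 3.20 to 5.84 CPM, without overlap (-0.67 ± 0.21, adjusted p = 0.2, edgeR).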

How the data were processed

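The values the authors deposited are raw whole-number counts, 1 table of gene symbols a library. RNA was extracted with Trizol, selected with oligo-dT and made into libraries with a NEBNext Ultra kit, per the labels' protocols. Per the submitters' processing notes reads passed through CASAVA (1.8.2), TopHat2 (2.0.8b) on build mm9 and HTSeq (0.5.4p3). Their settings, the annotation and strand use were not given in the sources used here. Overlapping and antisense genes can therefore share reads, which touches the head-to-head type IV pairs. The 5 summary rows of HTSeq, 28.3% to 31.7% of each file's total, were left out.

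Genes passing filterByExpr were scaled by TMM and tested with edgeR 4.0.16 under R 4.3.3 (functions estimateDisp, glmQLFit in robust mode and glmQLFTest), with the group as the only term and Benjamini-Hochberg adjustment over 15106 genes. CPM used TMM-scaled library sizes. A log2 fold change is TET-MYCN over Rb-null, ± its standard error, computed as its size over the square root of F. Per-length levels used the merged length of all annotated exons of a gene in GENCODE M21 (GRCm38), another build than that of the counts. That length was 12426 bases for Col1a2 and 6563 for Col1a1, so the order of genes by level depends in part on the annotation. Ratios were tested by exact permutation (scipy 1.17.1). DESeq2 1.42.0 and limma-voom (limma 3.58.1) were alternatives, beside other scalings, other filters, a replicate block, and leaving out single libraries. The newer method of edgeR, fits without 3 pairs of libraries and the tests of ratios were added after the data had been seen.

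Collagen members, classes and all lists were chosen with earlier results of these data known. Named genes were, per class, the 6 with the highest mean CPM and the 4 with the smallest p, plus vitreous and paired type IV chains, and the 3 with the smallest p per list of related genes. The fits were tested on simulated data for this comparison (15002 genes). Of 97 genes given a 2-fold change edgeR found 68, of 97 given a 4-fold change it found 91, and it made 15 false calls. DESeq2 found 77 and 92 with 48 false calls, and limma-voom found 68 and 92 with 16. Genes called by DESeq2 alone are to be read with its larger number of false calls. Libraries of a group differed by more than sampling noise. Counts limit precision: Col4a4 had 24 to 95 counts per library and Col2a1 3813 to 11209. The floor of 3 counts covers counting error only, whereas SDs and standard errors are across libraries.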

Additional observations from a re-analysis of the deposited data

Results flagged for a closer look

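Col9a3 in TET-MYCN library 4 stood apart from the other 3 libraries of its group, at 242 CPM against 131 to 145 CPM. The ratio of Col9a3 to Col9a1 in Rb-null library 3 also stood apart, at 0.391 against 0.569 to 0.601 in the other 3. These were 2 of 76 groups of 4 libraries examined with Dixon's criterion, which chance meets in about 1 of 20 groups. The 76 did not cover every collagen. Among those not covered, Col6a4 had 7.71 CPM in TET-MYCN library 4 and 1.56 to 1.97 CPM in the rest of that group.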

How the results depend on the processing

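The count of collagens past an adjusted p of 0.05 was 0 with edgeR and stayed 0 with other scalings, other filters, limma-voom and the newer quasi-likelihood method. It was 3 with DESeq2 and 0 to 3 with each library left out, the 3 being Col5a2, Col4a6 and Col25a1 without TET-MYCN library 3. Over all genes the count of 9 became 530 with DESeq2, 0 with limma-voom, 17 with no filter on low counts and 0 to 230 with each library left out. The replicate block gave 3 genes in all, 0 of them collagens, and 10 collagens at an unadjusted p under 0.05. Same-numbered libraries did not deviate together (correlations of -0.29 to -0.04). The numbers thus gave no sign of pairing, which a lack of correlation cannot exclude.

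The 11 collagens at an unadjusted p under 0.05 became 7 with limma-voom and 6 to 14 with each library left out. The 2 collagens whose groups did not overlap became 2 to 8, since smaller groups overlap less often. Shares over all genes were not computed for these alternatives, so these counts do not set collagens apart from other genes. With each library left out, class medians ranged from -0.0831 to 0.30 (fibrillar), 0.19 to 0.54 (basement membrane) and -0.14 to 0.04 (other).

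Without the TET-MYCN pair rich in ciliary markers, 0 genes were called in all, 6 collagens had an unadjusted p under 0.05, 7 did not overlap, and the basement membrane median was 0.0394. Log2 fold changes then reversed for Col11a1 (-0.24), Col23a1 (-0.14), Col27a1 (-0.0419) and Col5a1 (-0.13). Without the Rb-null pair rich in lens markers the counts were 0, 5 and 8, and Col11a1 (-0.0149) and Col9a1 (0.0485) reversed. Without Rb-null library 1 and TET-MYCN library 3, which had the highest shares of multiply aligned reads, 41 genes were called, 8 collagens did not overlap and Col4a2 (0.11) reversed. The cause was not tested. Shares over all genes at an unadjusted p or without overlap were not computed for these fits. Their collagen counts therefore have no background to be read against.

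With each library left out, 5 named genes reversed, all of them near 0: Col4a2 (-0.18 to 0.11), Col11a1 (-0.055 to 0.30), Col9a2 (-0.13 to 0.22), Col27a1 (-0.0831 to 0.37) and Col23a1 (-0.13 to 0.13). So did the ratios of Col6a1 to Col6a2 (-0.18 to 0.11) and Col8a1 to Col8a2 (-0.0311 to 0.58). In all, 20 of 27 named genes kept their direction under all 19 alternatives.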
